A study of Mus musculus with 4 samples.

Results

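The G2 and mitosis genes form a set of 40 genes, chosen by gene symbol from 27933 genes in the count tables, that encode mitotic kinases and cyclins, spindle checkpoint proteins, kinetochore proteins, spindle motors and the machinery of cell division. Their transcripts were counted by RNA-seq in melanocyte stem cells, the precursors of the pigment cells of hair, sorted from mouse skin by flow cytometry. Stressed mice received RTX, given in the labels only by this abbreviation (n = 2 libraries), and control mice received saline (n = 2 libraries), with harvest 12 h after injection. The labels do not give the strain, age or genotype of the mice, or whether the 2 libraries of a group came from separate animals, and the adjusted p values therefore reflect only how far these libraries scatter, part of which may be technical. All 8 melanocyte lineage markers examined (Mitf, Sox10, Kit, Dct, Tyr, Tyrp1, Pmel and Mlana) were detected in every library. All 40 genes were detected in every library and passed the filter on low counts, with 27680 and 21847 reads in stressed replicates 1 and 2 and 18396 and 13996 reads in control replicates 1 and 2.

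Entry into mitosis is driven by cyclin B bound to the kinase CDK1, and chromosomes are then attached to the spindle through kinetochores. The spindle assembly checkpoint holds back the anaphase promoting complex (APC/C), a ubiquitin ligase, until all chromosomes are attached. Most genes of this set are transcribed in G2 and mitosis and are nearly silent in resting cells, so their RNA in a bulk sample is widely used as a reading of how many cells are dividing. Melanocyte stem cells are mostly quiescent and divide when a hair follicle enters its growth phase.

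In the stressed cells the set lay higher on average, but the gap between the groups was smaller than the gap between the control libraries. The 40 genes summed to 2598 and 1987 CPM (counts relative to library totals scaled by edgeR's TMM method) in stressed replicates 1 and 2, against 1971 and 1186 CPM in control replicates 1 and 2. Stressed replicate 1 was thus the highest, control replicate 2 the lowest, and stressed replicate 2 and control replicate 1 were nearly level. The mean was 2292 ± 433 CPM in stressed cells and 1578 ± 555 CPM in control cells (SD, n = 2 each). The ratio of 1.45 was smaller than the 1.66 between the control libraries and larger than the 1.31 between the stressed libraries. In bulk samples of this kind, fewer dividing cells and less of this RNA in each cell cannot be told apart.

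In most single genes the highest and lowest libraries were the same as in the sums, but the middle order varied. Control replicate 2 had the lowest value of the 4 libraries for 37 of the 40 genes, against 25.4% of the 13348 genes tested, and stressed replicate 1 had the highest for 35, against 18.9%. The exceptions to the lowest place were Incenp and Kif20b, lowest in control replicate 1, and Kif22, lowest in stressed replicate 2. Stressed replicate 2 lay above control replicate 1 for 18 genes and below it for 22, with a median log2 difference of -0.04. The full order of the sums held in 14 genes, against 4.07% of all genes tested. The order with stressed replicate 2 and control replicate 1 exchanged held in 19, against 3.16%. Stressed replicate 1 lay above control replicate 1 for 38 genes, by a median of 0.40. Against control replicate 2, stressed replicate 1 was higher for 40 genes by a median of 1.21, and stressed replicate 2 for 39 by a median of 0.83.

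**Figure D1:**
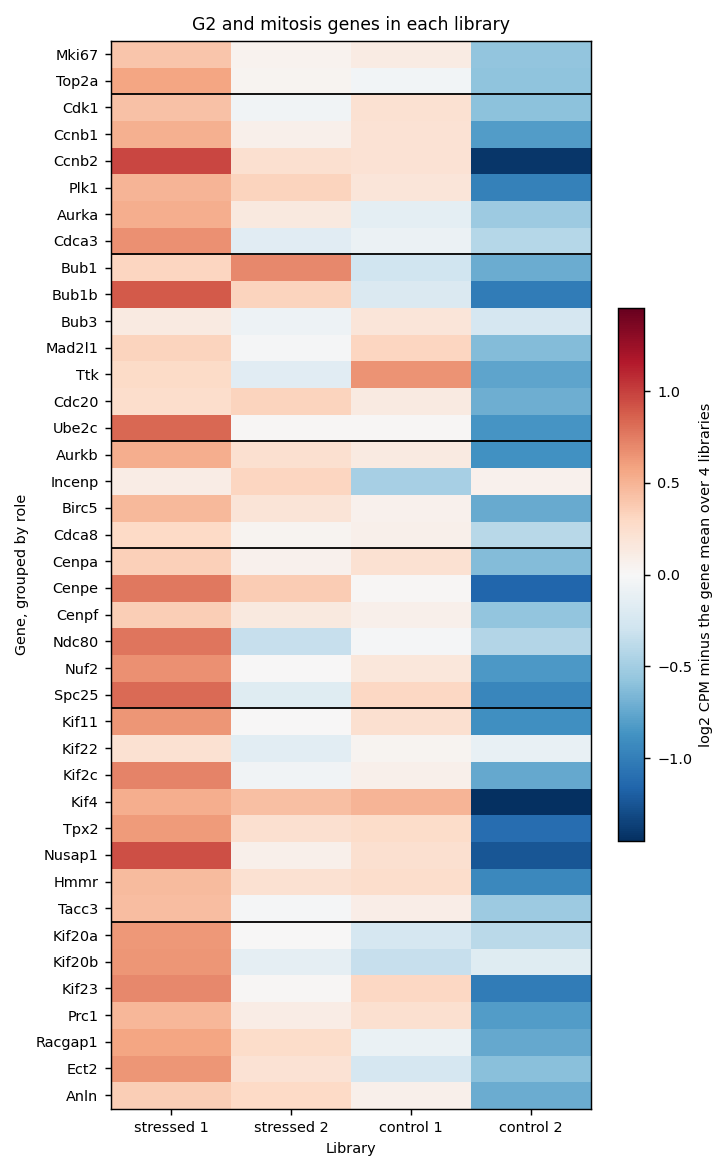
Level of each of the 40 genes in each library, as log2 CPM minus the gene's own mean over the 4 libraries (colour scale, log2 units), with rows in role groups divided by black lines. Control replicate 2 is the lowest library for 37 genes and stressed replicate 1 the highest for 35, while stressed replicate 2 and control replicate 1 have similar colours in most rows.

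Fold changes, fitted by edgeR over the whole table as stressed over control, were above 0 for 39 of the 40 genes, against 49.1% of all genes tested. Their median was 0.60 on the log2 scale, against -0.01 for all genes. In 18 genes both stressed libraries lay above both control libraries, against 21.8% of all genes, and in 0 genes both lay below, against 22.9%. By edgeR's quasi-likelihood test 0 of the 40 genes were called at an adjusted p below 0.05, as were 0% of all genes tested, and limma-voom likewise called 0 of the 40 and 0% of all. At an unadjusted threshold of 0.05, edgeR placed 5 of the 40 genes higher and 0 lower, against 5.17% and 7.6% of all genes. DESeq2 called 1 of the 40, Bub1b, as higher, and 0 as lower, against 1.73% and 2.67% of all genes.

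These values depended on which libraries of either group were used. Without control replicate 1 the median log2 fold change of the set was 1.07 and edgeR called 18 of the 40 genes higher, against 2.2% of all genes in that fit. Without control replicate 2 the median was 0.22, 34 genes lay above 0 and edgeR called 0 higher, against 1.63% of all genes in that fit. Without stressed replicate 1 the median was 0.33, and without stressed replicate 2 it was 0.82. In each such fit the lone library of a group was assumed to vary like the other group, which limits its calls.

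RNA of other cell types also differed between the libraries. Summed over 17 keratinocyte markers, 0 of them undetected in any library, it stood at 11586 and 9685 CPM of all counts in stressed replicates 1 and 2, and at 29838 and 17880 CPM in control replicates 1 and 2. The 8 melanocyte lineage markers summed to 38863 and 35932 CPM in the stressed libraries and to 21904 and 20534 CPM in the control libraries. Of the 8, 6 lay higher in both stressed libraries, against 21.8% of all genes tested. The lineage factors Mitf and Sox10 overlapped. Mitf had 452 and 407 CPM in stressed and 452 and 292 CPM in control cells, and Sox10 had 685 and 774 against 490 and 890 CPM. Among 10 markers of hair follicle stem and matrix cells, whose sum was 254 and 169 CPM in stressed and 178 and 174 CPM in control libraries, 4 lay higher in both stressed libraries (Krt71, Dlx3, Lef1 and Msx2), against 21.8% of all genes tested, and 1 lay lower, against 22.9%. The lower one was the stem cell surface marker Cd34, with 1.13 and 0.0909 CPM in stressed and 3.21 and 1.52 CPM in control cells. Those Cd34 values rest on few reads, 12 and 1 in stressed and 30 and 18 in control replicates 1 and 2. Sox9, the most abundant of the 10, overlapped at 155 and 79.0 CPM in stressed and 126 and 119 CPM in control cells. Krt71, a keratin of the inner root sheath, which is made by the dividing hair matrix, had 24.4 and 21.9 CPM in stressed cells, against 0.43 and 6.61 CPM in control cells. Shh, a signal of the hair matrix, was at or under 3 reads in all 4 libraries. Immune markers summed to 7.15 and 11.2 CPM in stressed and 12.6 and 59.2 CPM in control libraries over 10 genes, fibroblast markers to 23.5 and 12.7 against 6.15 and 17.3 CPM over 6 genes with Lum at 0 throughout, and endothelial markers to 0.376 and 1.08 against 3.02 and 0.759 CPM over 5 genes with Cdh5 at 0 throughout. Mitochondrial transcripts held 0.479% and 0.405% of counts in stressed and 0.906% and 2.07% in control libraries. The part of these differences in the levels of the mitotic genes was not tested.

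The 4 genes with the smallest edgeR p values were Bub1b, Ect2, Bub1 and Racgap1. Bub1b (chromosome 2, 118598211-118641591, mm10), which encodes the checkpoint kinase BubR1, had 94.2 and 63.2 CPM in stressed replicates 1 and 2, against 43.9 and 25.1 CPM in control replicates 1 and 2. The groups did not overlap, and the log2 fold change of 1.19 with a standard error (SE) of 0.33 was the largest of the set. Its edgeR adjusted p was 0.242, and DESeq2 gave 1.20 with an SE of 0.37 and an adjusted p of 0.0304. Without control replicate 1 the DESeq2 log2 fold change was 1.66. The lone control library was assumed there to vary like the stressed pair. The DESeq2 call was lost without control replicate 2 (0.85, adjusted p = 0.169), without stressed replicate 1 (0.88, adjusted p = 0.896) and without stressed replicate 2 (1.46, adjusted p = 0.314). In the fits without stressed replicate 1 or 2, DESeq2 called 0.296% and 0.103% of all genes higher.

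Ect2 (chromosome 3, 27097222-27153878), which encodes the activator of RhoA that sets up the cleavage furrow, had 59.0 and 43.9 CPM in stressed cells, against 32.0 and 24.8 CPM in control cells. Racgap1 (chromosome 15, 99620496-99651656), which encodes the GTPase-activating subunit of the centralspindlin complex at the spindle midzone, had 96.0 and 77.4 CPM in stressed cells and 60.0 and 38.5 CPM in control cells. In both genes the lower stressed library lay above the higher control. Bub1 (chromosome 2, 127801122-127831865), which encodes a checkpoint kinase at the kinetochore, was highest in stressed replicate 2, with 19.6 and 25.6 CPM in stressed replicates 1 and 2 and 13.0 and 9.57 CPM in control replicates 1 and 2. The log2 fold changes were 0.86 ± 0.26 for Ect2, 0.82 ± 0.26 for Racgap1 and 1.01 ± 0.32 for Bub1 (SE), with edgeR adjusted p values of 0.263, 0.285 and 0.275 and DESeq2 adjusted p values of 0.116, 0.128 and 0.165.

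Genes of this kind share promoter elements that keep them silent outside G2 and mitosis. The cell cycle genes homology region (CHR) binds the DREAM complex in resting cells and the MuvB complex with B-MYB and FOXM1 in dividing cells, and CCAAT boxes bind the activator NF-Y. The promoters of the 4 genes above, which had the smallest p values, are given here from 125 bases before to 25 bases after the RefSeq transcription start on GRCm38.p6, the sequence of mm10. Capitals mark CHR matches (TTTGAA or TTCGAA) and CCAAT matches on either strand, the reverse strand reading as ATTGG for CCAAT.
Bub1b, chr2:118598086-118598235, plus strand: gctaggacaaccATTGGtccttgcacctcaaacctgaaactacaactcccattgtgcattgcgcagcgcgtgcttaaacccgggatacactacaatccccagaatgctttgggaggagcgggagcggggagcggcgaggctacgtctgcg
Ect2, chr3:27153830-27153979, minus strand: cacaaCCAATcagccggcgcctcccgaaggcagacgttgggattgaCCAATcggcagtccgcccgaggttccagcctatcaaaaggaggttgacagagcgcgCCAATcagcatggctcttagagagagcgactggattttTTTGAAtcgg
Bub1, chr2:127831835-127831984, minus strand: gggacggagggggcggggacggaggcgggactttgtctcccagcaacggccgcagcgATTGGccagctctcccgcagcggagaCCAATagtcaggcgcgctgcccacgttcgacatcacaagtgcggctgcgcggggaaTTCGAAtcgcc
Racgap1, chr15:99651632-99651781, minus strand: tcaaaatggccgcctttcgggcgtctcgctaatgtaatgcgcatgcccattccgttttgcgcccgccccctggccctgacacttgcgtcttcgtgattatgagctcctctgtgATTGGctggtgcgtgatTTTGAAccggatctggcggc

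Ect2, Bub1 and Racgap1 had a CHR match that began 16, 15 and 6 bases after the start in these windows, downstream of 3, 2 and 1 CCAAT matches. Ect2 has 2 RefSeq starts, and from the one not shown this CHR match began 40 bases after the start. Bub1b had 1 CCAAT match in its window, and its CHR matches began 188 bases before and 41 bases after the start, outside the stretch shown. Of the 40 genes, 36 had a promoter in the RefSeq table, with 39 promoters of 300 bases in all (250 before to 50 after the start). A CHR match on either strand was present in 29 of the 36 genes (80.6%), against 21.7% of 27025 genes in the table, and a CCAAT match in 27 (75%), against 41.1%. Both were present in 25 genes (69.4%), against 8.61%, with 1 place where the matches overlapped. A CHR match began within 50 bases of the start in 27 of the 36 genes, against 6.12% of all genes. These matches describe the letters in the windows and were not tested as sites.

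**Figure D2:**
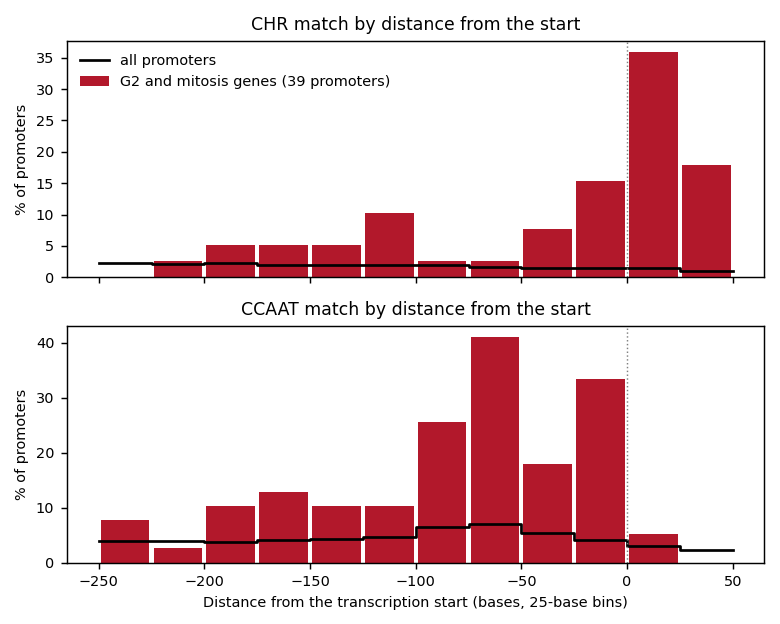
Share of promoters (%) with a CHR match (upper panel) or a CCAAT match (lower panel) beginning in each 25-base bin of distance from the transcription start, for 39 promoters of the G2 and mitosis genes (red bars) and all promoters (black line). The CHR share of these genes was highest in the 25 bases after the start, at 35.9% against 1.43% of all promoters, and the CCAAT share between 75 and 50 bases before it, at 41% against 6.99%.

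Mki67 and Top2a, the marker protein Ki-67 that coats mitotic chromosomes and the topoisomerase that untangles sister DNA, were among the best measured, with 818 to 1857 reads per library. Mki67 had 136 and 107 CPM in stressed replicates 1 and 2 and 112 and 69.3 CPM in control replicates 1 and 2, so that stressed replicate 2 lay below control replicate 1. Top2a had 174 and 120 CPM in stressed cells, against 114 and 78.1 CPM in control cells, with no overlap. Their log2 fold changes were 0.43 ± 0.27 and 0.62 ± 0.27 (SE), with edgeR adjusted p values of 0.58 and 0.418.

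The 6 kinases, cyclins and regulators of mitotic entry had fold changes above 0 in each case, with a median of 0.61. Of these 6 genes, 3 separated the groups upward (50%, against 21.8% of all genes). Ccnb2, which encodes cyclin B2, had the highest level per kb of exon among them, a mean of 27.3 CPM per kb over the 4 libraries, against 10.7 for Ccnb1 and 12.8 for Cdk1. Its counts were 70.7 and 42.2 CPM in stressed replicates 1 and 2, against 41.6 and 13.6 CPM in control replicates 1 and 2. Stressed replicate 2 and control replicate 1 were almost equal, and the log2 fold change of 1.04 had an SE of 0.53. Without control replicate 1 that value was 2.07, and without control replicate 2 it was 0.44. Ccnb1, which encodes the main mitotic cyclin, had 61.6 and 45.3 CPM in stressed cells and 49.6 and 24.5 CPM in control cells. Cdk1, the kinase that both cyclins activate, had 57.2 and 40.9 CPM in stressed and 49.7 and 28.0 CPM in control cells. In both the groups overlapped, and the sign of the Cdk1 value of 0.34 turned to -0.017 without control replicate 2. The spindle pole kinase gene Aurka had 33.4 and 25.6 CPM in stressed cells, against 21.1 and 16.2 CPM in control cells. The polo-like kinase gene Plk1 had 30.8 and 27.4 CPM, against 24.7 and 11.1 CPM in control cells. Both separated the groups, whereas Cdca3, which encodes a trigger of mitotic entry that directs the destruction of the kinase WEE1, had 46.3 and 26.2 CPM in stressed and 27.6 and 21.9 CPM in control cells, with overlap.

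Among the 7 checkpoint and APC/C genes the fold changes ranged from -0.04 to 1.19, with a median of 0.52. The groups were separated upward in 4 of the 7 (57.1%, against 21.8% of all genes). Cdc20, the APC/C activator on which the checkpoint acts, had the highest level per kb of the 40 genes, at 44.6 CPM per kb. It had 95.8 and 100.3 CPM in stressed replicates 1 and 2, against 88.2 and 49.1 CPM in control replicates 1 and 2. Only control replicate 2 stood apart, and the log2 fold change was 0.52 ± 0.29 (SE). The gene of the APC/C's own ubiquitin-conjugating enzyme, Ube2c, had 69.6 and 39.6 CPM in stressed cells and 39.5 and 21.5 CPM in control cells, with stressed replicate 2 and control replicate 1 level.

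Bub3, which encodes a kinetochore adaptor that is also made outside mitosis, had little difference, with 176 and 154 CPM in stressed cells and 182 and 137 CPM in control cells and a log2 fold change of 0.05 ± 0.21 (SE). Ttk, which encodes the kinase MPS1 that starts the checkpoint signal, was the 1 gene below 0, at -0.04 ± 0.48. It had 27.8 and 20.6 CPM in stressed replicates 1 and 2, against 36.2 and 13.5 CPM in control replicates 1 and 2, so that the controls held both the highest and the lowest value. Its sign turned with the library left out, to 0.86 without control replicate 1, and with limma-voom, to 0.17. Mad2l1, which encodes the checkpoint protein that binds CDC20, had 37.8 and 29.9 CPM in stressed and 37.6 and 19.6 CPM in control cells.

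The chromosomal passenger complex, which corrects wrong attachments and later guides cytokinesis, has 4 subunits in the set, with a median of 0.51. Aurkb, its kinase, had 47.2 and 38.5 CPM in stressed cells, against 35.8 and 17.8 CPM in control cells. Birc5, which encodes survivin, was close to it in level, with 47.0 and 38.5 CPM in stressed and 35.5 and 20.4 CPM in control cells. Incenp, the scaffold, showed another order, with 52.5 and 60.6 CPM in stressed replicates 1 and 2 and 34.8 and 50.8 CPM in control replicates 1 and 2. It was thus lowest in control replicate 1, although the groups did not overlap in these 3 genes (75% of the 4, against 21.8% of all genes). Cdca8, which encodes borealin, overlapped at 46.6 and 39.2 CPM in stressed and 40.3 and 28.8 CPM in control cells. The summed ratio between control replicates 1 and 2 was smallest here among the role groups, at 1.24.

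The 6 centromere and kinetochore genes had a median of 0.57, and 2 separated the groups, near the 21.8% of all genes. Cenpa, the histone variant that marks centromeres, had 107 and 87.7 CPM in stressed cells and 98.6 and 54.3 CPM in control cells, with a value of 0.35 that turned to -0.014 without control replicate 2. Cenpe, which encodes a kinetochore motor that moves chromosomes to the spindle equator, had 65.1 and 49.1 CPM in stressed cells, against 38.6 and 17.2 CPM in control cells. The stressed libraries both exceeded the controls, and the log2 fold change was 1.04 ± 0.40 (SE) with an edgeR adjusted p of 0.357 and a DESeq2 adjusted p of 0.168. Cenpf, a large kinetochore and nuclear matrix protein gene, had 65.6 and 56.3 CPM in stressed and 53.7 and 34.3 CPM in control cells. Ndc80, Nuf2 and Spc25 encode 3 subunits of the NDC80 complex, which holds microtubule ends. Ndc80 had 26.8 and 12.4 CPM in stressed replicates 1 and 2 and 15.4 and 11.6 CPM in control replicates 1 and 2, and was the 1 gene of the 40 more than 2-fold apart between the stressed libraries. Spc25 had 30.5 and 15.3 CPM in stressed cells and 21.2 and 8.90 CPM in control cells, and Nuf2 had 21.4 and 13.5 CPM in stressed cells and 15.1 and 7.54 CPM in control cells. In these 3 genes stressed replicate 2 lay below control replicate 1.

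None of the 8 spindle motor and microtubule protein genes separated the groups upward, against 21.8% of all genes. All nonetheless had values above 0, with a median of 0.62. They were also the group whose controls were furthest apart, summing to 440 and 312 CPM in stressed replicates 1 and 2 and to 339 and 176 CPM in control replicates 1 and 2. Tacc3, which stabilises spindle microtubules, had 74.7 and 54.1 CPM in stressed and 58.6 and 38.0 CPM in control cells. Kif11, the motor that pushes the spindle poles apart, had 72.4 and 46.6 CPM in stressed and 54.4 and 24.9 CPM in control cells. In both, the controls lay on either side of stressed replicate 2. Tpx2, which encodes an activator of Aurora A, had 65.0 and 49.6 CPM in stressed and 50.9 and 19.7 CPM in control cells. Kif4, a chromosome-bound motor gene, had 30.04 and 28.2 CPM in stressed replicates 1 and 2, against 29.5 and 7.62 CPM in control replicates 1 and 2. Here 3 libraries were level and control replicate 2 alone was low, and the log2 fold change was 0.66 with all libraries, 1.94 without control replicate 1 and -0.014 without control replicate 2. Nusap1, whose protein bundles spindle microtubules, had 61.1 and 33.6 CPM in stressed and 37.5 and 13.5 CPM in control cells. Hmmr, a spindle pole protein gene, had 40.1 and 33.8 CPM in stressed and 34.6 and 15.2 CPM in control cells, and the microtubule-depolymerising motor gene Kif2c had 45.4 and 26.6 CPM in stressed and 28.9 and 16.4 CPM in control cells. Kif22, which encodes a motor that binds chromosome arms, varied least, with 51.3 and 39.5 CPM in stressed and 44.9 and 40.7 CPM in control cells.

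Of the 7 genes of the spindle midzone and cytokinesis 5 separated the groups (71.4%, against 21.8% of all genes), and their median was 0.61. Beside Ect2 and Racgap1, given above, Anln, which encodes the furrow scaffold anillin, had 98.5 and 94.2 CPM in stressed replicates 1 and 2, against 80.9 and 46.9 CPM in control replicates 1 and 2. Kif20a, a midzone motor gene, had 57.9 and 37.6 CPM in stressed cells, against 31.6 and 28.6 CPM in control cells. Its controls were nearly equal, and its log2 fold change of 0.66 ± 0.28 (SE) was 0.75 and 0.60 without control replicates 1 and 2. Kif20b, a related motor gene, had 32.2 and 18.7 CPM in stressed and 16.3 and 18.2 CPM in control cells. Stressed replicate 1 alone stood apart there, since stressed replicate 2 was close to the controls. Kif23, which encodes the motor subunit of centralspindlin, had 69.0 and 43.3 CPM in stressed and 52.7 and 21.0 CPM in control cells, and Prc1, which crosslinks midzone microtubules, had 104 and 80.7 CPM in stressed and 87.8 and 42.6 CPM in control cells. Both overlapped, although the other centralspindlin subunit gene, Racgap1, did not. The difference between Kif23 and Racgap1 was not tested.

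**Figure D3:**
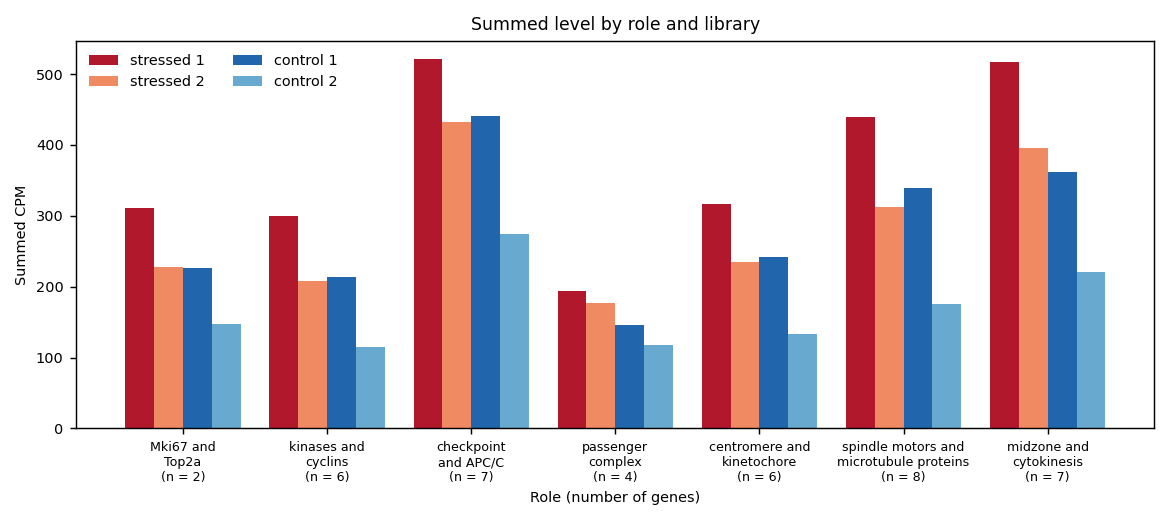
Summed CPM of the genes of each role (bars, one per library and with no error bar, since each is a single library; axis from 0), with the number of genes in brackets. Stressed replicate 1 is highest and control replicate 2 lowest in every role. Stressed replicate 2 and control replicate 1 had 312 and 339 CPM for the spindle motors and 396 and 361 CPM for the midzone genes, and 177 and 146 CPM for the passenger complex, where stressed replicate 2 was nearer to stressed replicate 1 (193 CPM).

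**Figure D4:**
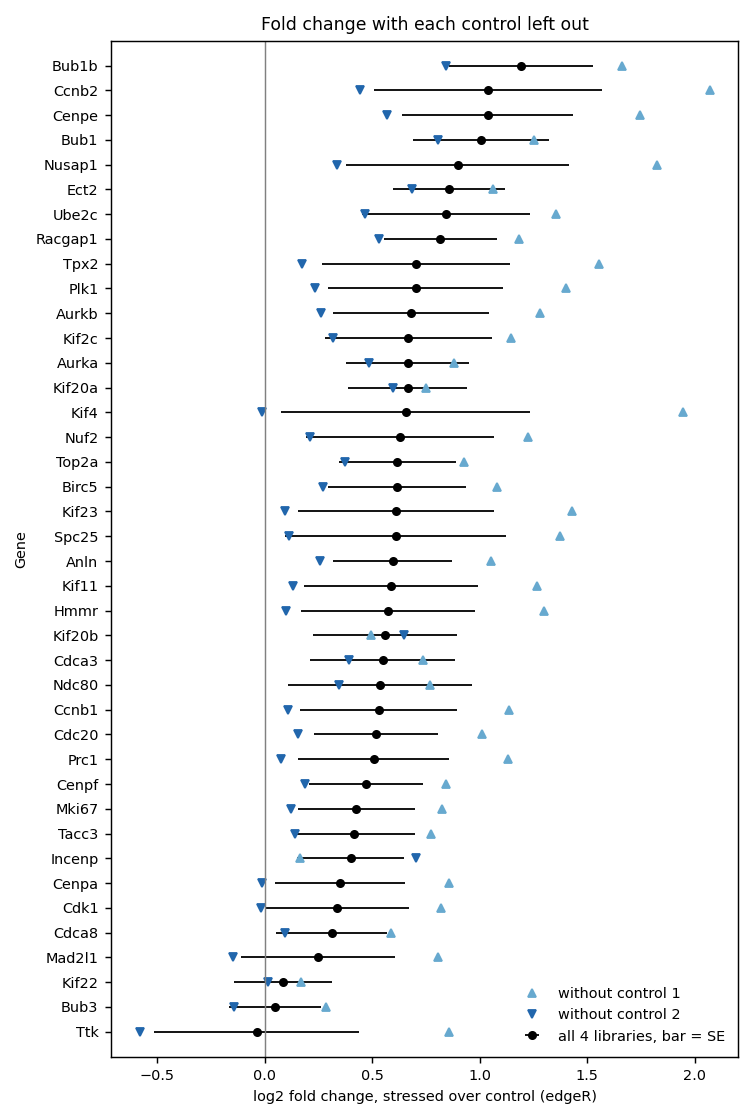
Fitted log2 fold change, stressed over control, of each gene with all 4 libraries (black points, bars are 1 SE) and with control replicate 1 (light triangles) or control replicate 2 (dark triangles) left out. Leaving out control replicate 1 moved 38 of the 40 values up, to a median of 1.07, and leaving out control replicate 2 brought the median to 0.22, with Incenp and Kif20b going the other way.

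Other genes of G2 and mitosis were examined as 7 lists with 128 genes that matched the tables, all of which passed the filter. Of these, 88 had fold changes above 0 and 40 below, with a median of 0.15, and 41 separated the groups upward, against the 21.8% of all genes given above, and 14 downward, against 22.9%. The median of the 128 genes was 0.066 without stressed replicate 1, with 72 above 0, and 0.25 without stressed replicate 2, with 99 above 0. edgeR called 0 of them, with 10 higher and 0 lower at an unadjusted threshold of 0.05, and limma-voom called 0. DESeq2 called 4, all higher and all in the list of 32 other spindle and centrosome genes, against 1.73% of all genes. That list had a median of 0.54 with 28 genes above 0, close to the 40 genes, while the other lists had medians between 0.03 and 0.23. The median of the spindle and centrosome list was 0.87 with control replicate 1 left out and 0.33 with control replicate 2 left out. The APC/C subunits, most of which are made throughout the cell cycle, had a median of 0.07, and 10 of 17 lay above 0. Anapc5, its most abundant member, had 469 and 460 CPM in stressed and 487 and 597 CPM in control cells.

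The 4 genes called by DESeq2 had closely matched stressed libraries. Gtse1, which encodes a microtubule-bound regulator of p53, had 36.8 and 41.5 CPM in stressed cells, against 16.3 and 9.66 CPM in control cells, a log2 fold change of 1.596 ± 0.33 (SE, edgeR) with a DESeq2 adjusted p of 0.00194. Spag5, which encodes the spindle protein astrin, had 44.0 and 43.2 CPM in stressed cells, against 20.8 and 10.8 CPM in control cells. In both genes each stressed library had about the same value and lay well above either control. Ckap2l, a spindle protein gene, had 81.2 and 73.8 CPM in stressed and 45.3 and 25.8 CPM in control cells, and Dlgap5, which encodes the spindle assembly factor HURP, had 37.8 and 32.5 CPM in stressed and 17.997 and 14.5 CPM in control cells. The DESeq2 adjusted p values of Spag5, Ckap2l and Dlgap5 were 0.00851, 0.0249 and 0.0263. With control replicate 1 left out, the DESeq2 log2 fold changes were 2.02 for Gtse1, 2.01 for Spag5, 1.59 for Ckap2l and 1.28 for Dlgap5. With control replicate 2 left out, they were 1.27, 1.07, 0.78 and 0.97 in the same order. In fits with 1 library left out, the lone library of a group was assumed to vary like the other group. Of the 4 calls only that of Gtse1 held without control replicate 2 (adjusted p = 0.0457), that of Dlgap5 was also lost without control replicate 1 (adjusted p = 0.0714), and without stressed replicate 1 or 2 each of the 4 was lost, at adjusted p values between 0.251 and 0.896. The fold changes stayed close in those fits, at 1.69 and 1.51 for Gtse1, 1.46 and 1.49 for Spag5, 1.07 and 1.20 for Ckap2l and 1.01 and 1.23 for Dlgap5, while DESeq2 called 38 and 13 genes higher in the whole table, against 231 with all libraries.

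Among regulators of entry, Ccna2, which encodes cyclin A2, had 95.7 and 73.7 CPM in stressed cells, against 54.4 and 37.2 CPM in control cells, without overlap and with a DESeq2 adjusted p of 0.0710. Wee1, the kinase that holds CDK1 inactive, had 124 and 102 CPM in stressed cells and 35.9 and 144 CPM in control cells, with the controls on either side. The remaining genes, named for their abundance, had log2 fold changes between -0.27 and 0.46, none of them called. Rbbp4 and Rbl2, which encode subunits of the DREAM complex, were at -0.11 and 0.03, the condensin genes Smc4 and Ncaph2 at 0.46 and -0.18, and the cohesin regulators and subunits Wapl and Smc1a at 0.02 and 0.12. The kinetochore-related genes Hjurp and Zw10 were at -0.01 and -0.27, the spindle genes Numa1 and Ckap5 at 0.28 and -0.02, and Anapc2 at 0.09, with edgeR adjusted p values from 0.418 for Smc4 to 0.994 for Hjurp. A CHR match was found in the promoter windows of 15 of 28 other spindle genes (53.6%), 6 of 7 condensin genes (85.7%) and 4 of 16 APC/C genes (25%), against 21.7% of all genes. The share was 50% of the mitotic entry regulators and 46.2% of the other kinetochore genes. It was 36.4% in the transcription list and also 36.4% in the cohesin and separase list.

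**Figure D5:**
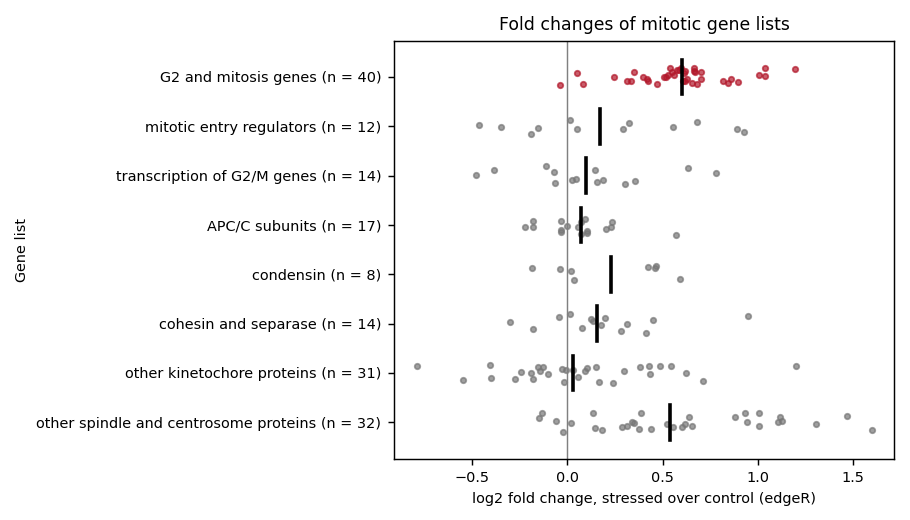
Fitted log2 fold changes, stressed over control, of the 40 G2 and mitosis genes (red) and of 7 lists of other mitotic genes (grey), 1 point per gene with the median as a black bar and points jittered vertically. The medians of the 40 genes (0.60) and of the other spindle and centrosome genes (0.54) lie apart from those of the other 6 lists, between 0.03 and 0.23.

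Counting was unstranded, and 8 of the 40 genes share exon sequence with a gene on the opposite strand. The shared stretch is 33.2% of the exon length of Kif20a (with Cdc23), 22.8% of Ube2c (with Tnnc2), 15.1% of Kif4 (with Pdzd11) and 11.1% of Prc1 (with Rccd1), and between 1.96% and 8.14% for Tacc3, Nusap1, Cdc20 and Kif22. Levels per kb of these genes are therefore less certain than the comparison of each gene between libraries, and reads of the overlapping genes in those stretches cannot be told apart by strand.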

How the data were processed

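RNA-seq was measured in 4 libraries. The authors deposited whole-number read counts per gene. Per the file headers, these were made with featureCounts 1.6.1 against an mm10 annotation, summing exons by gene name at a minimum mapping quality of 30, with no strand, paired-end or multiple-assignment option. STAR 2.5.3, Trim Galore 0.4.1 and DESeq2 1.22.2 are named in the submitters' processing notes. Total counts were 10625688 and 11104039 in stressed and 9273652 and 11854280 in control replicates 1 and 2, where 3 counts, the most a count of 0 allows, equal 0.253 to 0.323 CPM (counting error only). Replicates differed beyond sampling noise (chi-square per degree of freedom 18.0 in the stressed and 54.0 in the control pair). Per the file headers the alignments of stressed replicates 1 and 2 carry other numbers than the sample titles. Whether this reflects another numbering or a further stressed library is not known here.

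Counts of all genes were filtered with filterByExpr (minimum count 10), leaving 13348 genes, scaled by TMM and compared with edgeR 4.0.16's quasi-likelihood test in R 4.3.3, as a two-sided test of group alone with Benjamini-Hochberg adjustment over all genes. Each SE was obtained from the fold change and its F statistic (log2 fold change over the root of F). DESeq2 1.42.0 and limma-voom (limma 3.58.1) were alternatives. The scripts were tested on simulated data. The members, the other lists and the markers were chosen with earlier results of these data known. Genes named with values per library were to be the 3 of highest level per kb in each role, called genes, those below 0 and the extremes, and the remaining members were added after their values were seen. Of the other lists, called genes and the 2 most abundant of each were named. Promoters are from RefSeq (GRCm38.p6). Motif words were chosen after the data were available. A further marker list is not reported here.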

Additional observations from a re-analysis of the deposited data

How the results depend on the processing

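With DESeq2 size factors, upper-quartile scaling, a stricter filter (5 CPM or more in 2 libraries), or without the 20 most abundant genes, edgeR called 0 of the 40 genes, the median log2 fold change stayed between 0.59 and 0.61, and 16 to 18 genes separated the groups upward. Control replicate 2 was lowest for 37 genes under each scaling, a check added after seeing the data. With no low-count filter edgeR called 3 genes higher (Bub1b, Cenpe and Racgap1), against 1.35% of all genes in that fit. With 1 library left out, edgeR called 0 to 18 of the 40 genes and DESeq2 0 to 14, the genes separated upward numbered 18 to 39 (18 of 40 without control replicate 2, where 39.3% of all genes were separated upward, and 39 without control replicate 1, where 38.2% were), the median lay between 0.22 and 1.07, and the log2 ratio of the summed CPM, 0.54 with all libraries, between 0.22 and 0.96. The lone library of a group was then assumed to vary like the other group. Single genes whose sign turned ranged from -0.14 to 0.29 (Bub3), -0.017 to 0.82 (Cdk1), -0.014 to 0.86 (Cenpa), -0.11 to 0.27 (Kif22), -0.014 to 1.94 (Kif4), -0.15 to 0.80 (Mad2l1), -0.12 to 0.999 (Ndc80) and -0.58 to 0.86 (Ttk). Ttk was also above 0 with limma-voom (0.17) and with the replicate block (0.10). The labels number replicates in both groups without saying that a number marks a shared batch. Across genes the differences between replicates 1 and 2 of the 2 groups correlated at 0.17. With the replicate number as a block, edgeR called 0 of the 40 genes with a median of 0.65, and DESeq2 called 2 (Bub1b and Ccnb2). Other causes of these shifts were not tested. With 2 libraries a group, the spread between libraries limits these comparisons. Reads per library were 818 to 1857 for Mki67 and Top2a but as few as 89 for Nuf2 in control replicate 2. The part of read depth was not tested.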
